A study of Mus musculus with 32 samples.

Results

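Expression was compared between 2 lines of Ba/F3, a murine pro-B cell line that depends on cytokine for growth. Ba/F3-SyCyR(IL-23R) carries a synthetic cytokine receptor (SyCyR), in which a nanobody against GFP stands in place of the ligand-binding part of the IL-23 receptor and is joined to its transmembrane and intracellular parts. Ba/F3-gp130 is the line it was made from. Both carry human gp130, the shared signal transducer of the IL-6 family, so they differ at least by the synthetic receptor, its selection and the weeks of separate culture that followed. The arrays were chosen by the number in their titles, of which only the even ones (14, 16, 18 and 20) entered, 4 per line and 8 of the 32 arrays of the series. The 2 other lines, Ba/F3-SyCyR(IL-23/2A) with a pair of synthetic receptors and Ba/F3-IL-12Rβ1-IL-23R with the natural murine receptor chains, were used where a direct test was needed.

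The protocols describe growth with Hyper-IL-6, a fusion of IL-6 with its soluble receptor, then 3 h without serum and 1 h with 100 ng/ml of GFP-mCherry, HmIL-23 or 3xGFP, with medium of untransfected CHO-K1 cells as the control in the study's methods. For transduced lines the study's methods also describe removal of Hyper-IL-6 after drug selection, then selection for growth that depended on the GFP and mCherry ligands. The labels do not say which array received a ligand or the control, nor whether a line was 1 clone. Effects of the receptor, of such a cytokine history and of treatment can therefore not be told apart between the lines. The even numbers were picked because Socs3, a feedback inhibitor that STAT3 induces, was low on them in the receptor lines, so Socs3 is described here without a test. Its brighter probe set read 8.79, 8.87, 9.21 and 8.93 (log2) on SyCyR(IL-23R) arrays 14, 16, 18 and 20, against 11.75 to 12.06 on the odd-numbered arrays of that line. In Ba/F3-gp130 it read 8.45 to 8.66 on the even and 8.44 to 8.60 on the odd arrays, so in the parental line the numbers did not separate Socs3-low from Socs3-high arrays.

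As background, the IL-23 receptor signals through JAK kinases to STAT3, and in T cells it sustains the Th17 programme. Cytokine receptors of this kind also reach the ERK pathway, whose feedback genes include the Dusp phosphatases. NF-κB is held in the cytoplasm by IκBα, the product of Nfkbia, and its targets in myeloid cells include the chemokines Ccl3 and Ccl4 and the cytokine Tnf.

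All values are log2 RMA levels, and differences are SyCyR(IL-23R) minus gp130 on that scale with their standard error. A probe set was called when limma gave a Benjamini-Hochberg adjusted p under 0.05 over the 23410 probe sets with a gene symbol and the difference reached 1.5-fold. The array carries no detection call, so a probe set is named dim here below 7.04, the median over the array of each probe set's mean level. Where the lower group was dim, the fold is given as "at least", measured from that limit, and none is given where both were dim. On the 8 arrays the median over all probe sets was 7.08 to 7.10 in gp130 and 6.99 to 7.02 in SyCyR(IL-23R), and arrays of a group correlated at 0.993 or more.

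The receptor genes were examined first. Il23r, which encodes the receptor chain built into the synthetic receptor, read 5.95, 6.54, 6.24 and 6.19 in SyCyR(IL-23R) and 6.78, 6.41, 6.55 and 6.60 in gp130. All 8 values were dim and the ranges overlapped (difference -0.35 ± 0.12, SE, adjusted p = 0.122, limma). The natural receptor line had a mean of 13.24 and the other synthetic receptor line 6.32. Which part of Il23r this probe set covers is unknown here, so it does not check the label of a receptor without most of the extracellular part. Il12rb1, the partner chain of IL-23R, read 8.04 to 8.27 in SyCyR(IL-23R) and 7.84 to 8.16 in gp130 (difference 0.17 ± 0.08, adjusted p = 0.280). Murine Il6st was dim on all 8 arrays, at 5.81 to 6.11, and is not a measure of the human gp130 transgene.

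Between the lines 163 probe sets were higher and 148 lower in SyCyR(IL-23R), 0.696% and 0.632% of those tested (1.33% in either direction). In 309 of the 311 the 4 and 4 values did not overlap, and over all probe sets tested 12.1% showed no overlap (5.71% higher and 6.4% lower). The rises were larger than the falls, with 77 against 30 calls at 2-fold or more and 6 against 1 at 8-fold or more. The parental and SyCyR(IL-23R) arrays numbered 20 weighed on the counts. Without both of them 94 were higher and 115 lower, and without both arrays numbered 14 the counts were 132 and 93. When each array was centred on its own median, 237 were higher and 98 lower, so the near balance of rises and falls rests on the deposited scale.

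**Figure D1:**
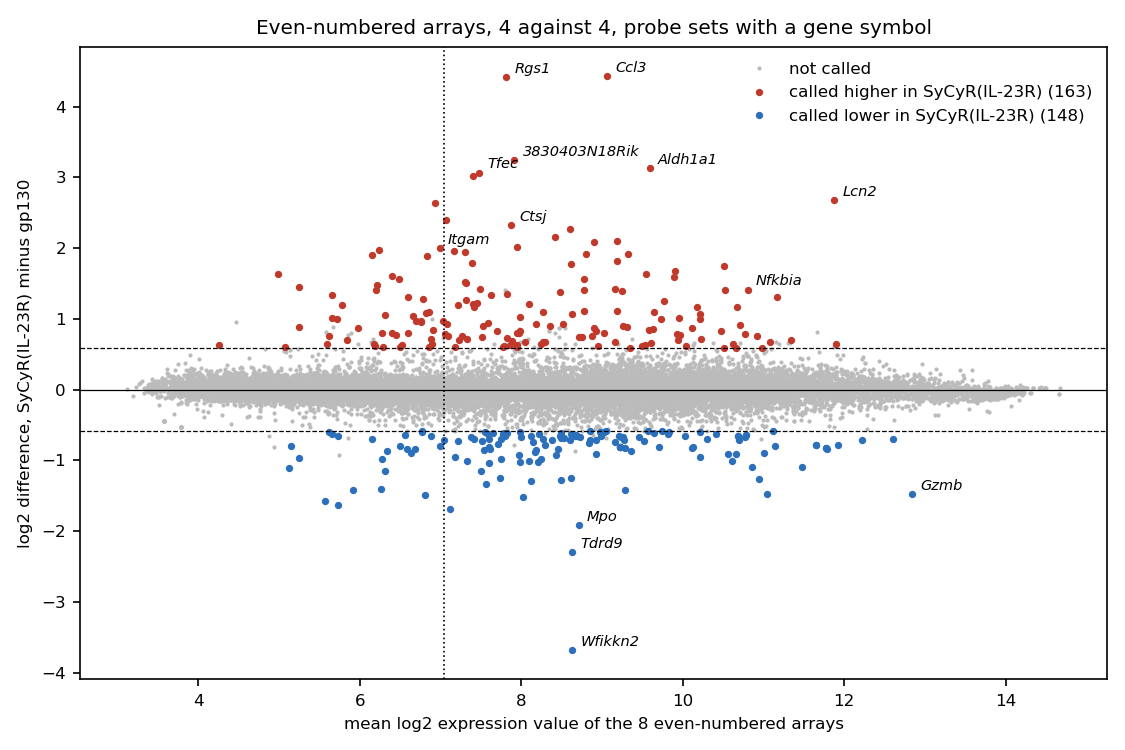
Log2 difference of SyCyR(IL-23R) minus gp130 (vertical axis) against the mean log2 level of the 8 even-numbered arrays (horizontal axis), 1 point per probe set with a gene symbol. Coloured points are the 163 called higher and 148 called lower, dashed lines mark 1.5-fold, and the dotted line marks the level of 7.04 under which a probe set is named dim.

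The largest rise was in Ccl3, a chemokine (CCL3, or MIP-1α) that draws monocytes and other leukocytes. On arrays 14, 16, 18 and 20 it read 10.36, 12.87, 10.15 and 11.76 in SyCyR(IL-23R) and 7.06, 7.26, 6.28 and 6.79 in gp130. Every SyCyR(IL-23R) array lay above every gp130 array, with array 16 highest in both lines and array 18 lowest in both. The difference was 4.44 ± 0.49 (at least 18.2-fold, adjusted p = 0.000435). Rgs1, a regulator that shortens G protein signals from chemokine receptors, read 10.04, 10.20, 9.36 and 10.47 against 5.94, 5.33, 5.48 and 5.67. It was dim in each gp130 array and bright in each SyCyR(IL-23R) array, a difference of 4.41 ± 0.20 (at least 7.86-fold, adjusted p = 3.44e-07). Of 17 measured Rgs genes it was the only 1 called. Rgs18 differed by 0.53 and was under the fold limit.

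Aldh1a1, a retinaldehyde dehydrogenase that makes retinoic acid, read 11.35, 10.90, 11.22 and 11.14 against 8.07, 8.19, 8.08 and 7.75, a rise of 3.13 ± 0.11 (8.75-fold, adjusted p = 5.26e-08). Its neighbour on chromosome 19, Aldh1a7, rose by 2.39 ± 0.09 (at least 2.34-fold). Both lines were tight at these genes and the groups lay far apart. Tfec, a transcription factor of the Mitf family found in macrophages, read 8.80 to 9.19 in SyCyR(IL-23R) and 5.64 to 6.13 in gp130, a difference of 3.07 ± 0.11 (at least 3.91-fold). The X-linked gene 3830403N18Rik read 9.43 to 9.61 in SyCyR(IL-23R). Its gp130 arrays split, with 5.79 and 5.60 on arrays 14 and 20 and 6.97 and 6.80 on arrays 16 and 18. Myct1 rose by 2.09 ± 0.11 (4.25-fold) and Ctsj, a cathepsin of the placental cluster, by 2.33 ± 0.31 (at least 3.98-fold).

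Lcn2 (lipocalin 2, a neutrophil granule protein that withholds iron from bacteria) was already bright in the parental line. It read 10.80, 11.65, 9.39 and 10.31 there and 12.999, 13.78, 12.63 and 13.45 in SyCyR(IL-23R). Array 16 was again highest and array 18 lowest in both lines. The difference was 2.67 ± 0.39 (6.38-fold, adjusted p = 0.00254), and without both arrays numbered 20 it was 2.52 with an adjusted p of 0.0522, so that call was lost. Clec4e, the C-type lectin Mincle that senses mycobacterial glycolipids, read 9.21, 10.53, 9.01 and 10.22 against 7.40, 8.01, 6.74 and 7.75 (4.81-fold). Igsf6 rose by 2.16 ± 0.16 (4.47-fold). Milr1, an inhibitory receptor of mast cells also called allergin, rose by 2.10 ± 0.33 (4.30-fold), a call that was likewise lost without both arrays numbered 20 (2.02, adjusted p = 0.0609).

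**Figure D2:**
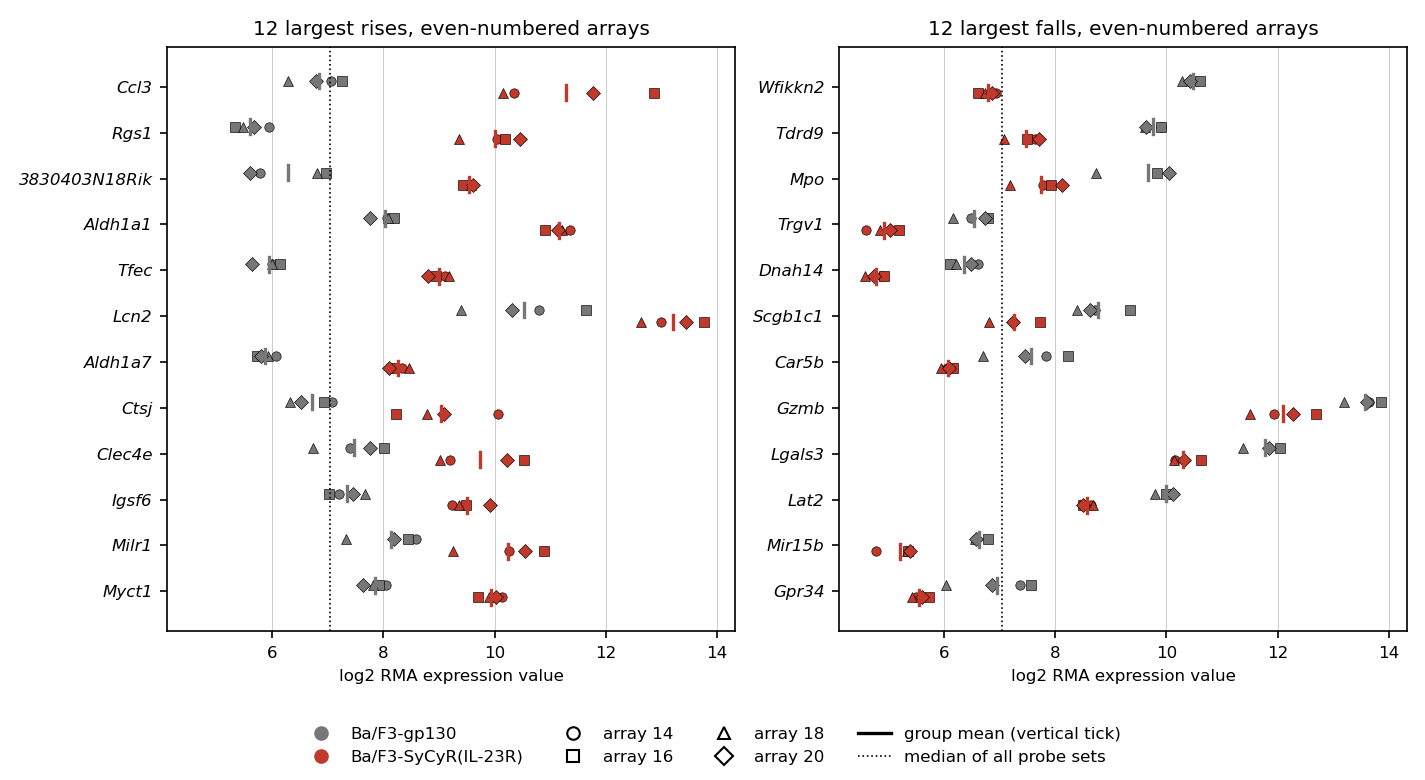
Log2 RMA level (horizontal axis) of the 12 genes with the largest rise and the 12 with the largest fall on the even-numbered arrays, grey for Ba/F3-gp130 and red for Ba/F3-SyCyR(IL-23R). Each symbol is 1 array, its shape gives the array number, the vertical tick is the group mean, and the dotted line is at 7.04; in each of the 24 genes the 4 red and 4 grey symbols do not overlap.

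The largest fall was in Wfikkn2, a secreted protease inhibitor that binds the growth factors myostatin and GDF11. It read 10.55, 10.61, 10.28 and 10.43 in gp130 and 6.94, 6.61, 6.74 and 6.86 in SyCyR(IL-23R). All 4 SyCyR(IL-23R) values were dim, and the difference was -3.68 ± 0.09 (at least 10.8-fold lower, adjusted p = 1.91e-09). Tdrd9, a tudor domain helicase of the piRNA pathway in germ cells, read 9.62 to 9.91 in gp130 and 7.07 to 7.71 in SyCyR(IL-23R), a difference of -2.29 ± 0.13. These were the 2 calls with a 4-fold fall or more. Mpo, myeloperoxidase of neutrophil granules, read 10.05, 9.83, 8.73 and 10.05 in gp130 and 7.78, 7.93, 7.19 and 8.12 in SyCyR(IL-23R). It fell by 1.92 on the log2 scale (SE 0.27, adjusted p = 0.00234), and array 18 was lowest in both lines.

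Among the other large falls, Gzmb, the protease granzyme B, remained among the brighter genes of both lines at 13.19 to 13.86 in gp130 and 11.50 to 12.69 in SyCyR(IL-23R) (difference -1.48 ± 0.22, adjusted p = 0.00254). Lgals3, the lectin galectin-3, read 11.38 to 12.04 against 10.14 to 10.62 (-1.47 ± 0.14). Lat2, an adaptor of Fc receptor and B cell receptor signaling, read 9.79 to 10.12 against 8.50 to 8.67 (-1.42 ± 0.08). Each of these 3 genes fell without overlap and kept its call whichever arrays were left out. Scgb1c1 fell by 1.51, from a mean above the dim limit in both lines. The carbonic anhydrase gene Car5b and the receptor gene Gpr34 had their highest values on gp130 array 16, at 8.23 and 7.56, and their lowest gp130 values on array 18, at 6.71 and 6.04. Their differences of -1.49 ± 0.24 and -1.40 ± 0.26 lost their calls without both arrays numbered 14 (adjusted p = 0.0623 and 0.0917) or 20 (0.0567 and 0.0816). Trgv1, Dnah14 and Mir15b were dim in both lines, with differences of -1.63, -1.57 and -1.42.

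Gene lists were then counted by pathway, each with its median difference beside the median of 0.01 over all 19938 genes with their own probe set. The share to set beside each count on the even arrays is 0.696% called higher and 0.632% lower over all probe sets tested. Of 18 measured NF-κB response genes 5 were called higher (Ccl3, Nfkbia, Ccl4, Tnf and Traf1) and 0 lower, and their median was 0.42. Nfkbia, the inhibitor that NF-κB itself induces, read 11.10, 12.44, 10.55 and 11.96 on SyCyR(IL-23R) arrays 14, 16, 18 and 20 and 10.30, 10.23, 9.80 and 10.06 on the gp130 arrays. The groups did not overlap, although SyCyR(IL-23R) array 18 exceeded the highest gp130 array by little, and the difference was 1.41 ± 0.32 (2.67-fold, adjusted p = 0.0274). Tnf read 7.47, 8.59, 7.34 and 7.85 against 6.36, 6.83, 6.59 and 6.70, a difference of 1.19 ± 0.22 (at least 1.71-fold). Ccl4, the neighbour of Ccl3 on chromosome 11, read 7.53, 9.08, 7.10 and 8.09 against 6.51 to 6.83 (1.27 ± 0.32, adjusted p = 0.0435). In all 4 genes the order of the SyCyR(IL-23R) arrays was the same, with 16 highest, then 20, 14 and 18.

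Of these 5 genes Ccl3 alone kept its call in all 12 refits that left out 1 array or both arrays of 1 number. Nfkbia was called in 4 of the 12, and the adjusted p of the others reached 0.189 without both arrays numbered 20. Ccl4 was called in 3 and Traf1 in 6, and Tnf in 10, its call being lost without both arrays numbered 14 (adjusted p = 0.0542) or 20 (0.0907). Without both arrays numbered 16, the ones with the highest values, the differences were 1.15 for Nfkbia (adjusted p = 0.0778) and 0.88 for Ccl4 (0.0598). Nfkbiz (0.53), Relb (0.42) and Birc3 (0.37) had adjusted p-values of 0.0284, 0.0174 and 0.0257 and lay under the fold limit, while Tnfaip3 (0.53, adjusted p = 0.15) did not pass the test. With the probe sets without a symbol tested together with the rest, Ccl4 and Nfkbia had adjusted p-values of 0.076 and 0.0551.

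The promoters of 3 genes higher in SyCyR(IL-23R) are shown because they differ in the NF-κB motif, the 10-base consensus of that factor, which was searched on both strands of the 250 bases before each RefSeq start (GRCm38.p6). It was present in 7.01% of 27025 promoters. The 120 bases before the start are printed 5′ to 3′ on the strand of the gene with the motif in capitals, from chr12:55492648-55492767 (minus strand) for Nfkbia, chr17:35194387-35194506 (plus strand) for Ltb and chr11:83649379-83649498 (minus strand) for Ccl3.
Nfkbia: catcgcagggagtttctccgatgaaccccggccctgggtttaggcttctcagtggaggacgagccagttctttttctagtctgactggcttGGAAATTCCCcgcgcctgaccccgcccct
Ltb: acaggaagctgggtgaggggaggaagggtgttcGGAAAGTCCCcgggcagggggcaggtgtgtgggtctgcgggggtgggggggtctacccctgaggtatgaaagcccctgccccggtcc
Ccl3: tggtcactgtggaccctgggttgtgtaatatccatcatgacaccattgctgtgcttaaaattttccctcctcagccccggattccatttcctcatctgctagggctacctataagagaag
Nfkbia and Ltb each held 1 match in the window and Ccl3 held 0. Ltb, lymphotoxin beta of the TNF family, read 10.79, 11.30, 10.08 and 10.80 in SyCyR(IL-23R) and 9.28, 9.30, 8.75 and 8.94 in gp130 (1.67 ± 0.21, 3.19-fold, adjusted p = 0.00114). Of the 145 genes called higher 110 had a promoter in the table, and 16 of these (14.5%) held the motif, against 5 of 82 (6.1%) for genes called lower. The AP-1 motif TGANTCA was in 11 (10.0%) and 5 (6.1%) of these promoters and in 6.87% of all, and the STAT motif TTCNNNGAA in 13 (11.8%) and 4 (4.88%) and in 7.18% of all, so the NF-κB motif was not alone in being more frequent among the genes called higher. None of the 11 promoters available among the 12 largest rises held it. A match in these letters is a description of the sequence and was not tested for binding. The shares stand beside all 27025 promoters, not only those of genes measured here, and their differences were not tested.

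In the list of 29 ERK genes, of the immediate early and feedback kind, 4 rose and 0 fell, with a median of 0.18. Dusp6, the phosphatase that acts on ERK itself, read 11.75, 12.02, 11.44 and 12.09 in SyCyR(IL-23R) and 10.86, 10.66, 9.92 and 10.60 in gp130, a difference of 1.32 ± 0.19 (2.49-fold, adjusted p = 0.00234). It kept its call whichever arrays were left out. Dusp4 rose by 0.93, Ier3 by 0.89 and Fosl1, an AP-1 subunit, by 0.88, and each lost its call without both arrays numbered 20 (adjusted p = 0.110, 0.117 and 0.0522). Without both arrays numbered 14, Dusp4 (0.0635) and Fosl1 (0.0633) also lost it, as did Dusp4 without both numbered 16 (0.0533). Ier3 lost it too when only gp130 array 14 (0.0542) or only SyCyR(IL-23R) array 20 (0.0518) was left out. The immediate early genes Fos (0.28, adjusted p = 0.29) and Jun (0.22, adjusted p = 0.62) did not pass the test, and Ier2 (0.45) and Junb (0.29) passed it under the fold limit.

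STAT3 target genes other than Socs3 gave 2 calls of 21, both higher, with a median of 0.13. Pim2, a survival kinase, read 11.32, 11.57, 10.86 and 11.80 against 9.73, 9.55, 9.38 and 9.89. The groups lay about 1 log2 unit apart at their nearest, and the difference was 1.75 ± 0.17 (3.36-fold, adjusted p = 0.000231). Cish, a feedback inhibitor that STAT5 induces, rose by 0.62 ± 0.08 and fell under 1.5-fold without SyCyR(IL-23R) array 16 (0.54). Bcl6, a repressor, had a difference of -0.38 under the fold limit. On the odd-numbered arrays of the same lines 13 of the 21 were called higher and 0 lower, with a median of 1.16, beside 0.935% and 0.683% over all probe sets. The even numbers were chosen for low Socs3, itself a STAT3 target. Fewer calls on the even than on the odd arrays may follow from that choice and are no separate result. The list of genes that the study named from these arrays had 3 calls of 17 on the even arrays (Pim2, Slc2a1 and Ier3, all higher) and 14 on the odd ones, and since that list was chosen on these samples it is no independent evidence of a direction.

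For JAK-STAT signaling 28 receptors and components were measured, of which 2 rose and 0 fell, and the median was -0.05. At an unadjusted p under 0.05, 4 of the 28 were higher and 10 lower. Ifngr2, the second chain of the interferon gamma receptor, read 11.50 to 11.96 against 10.75 to 11.10 (0.71 ± 0.10, 1.63-fold). Stat4, which the IL-12 receptor activates, was dim in both lines at 5.97 to 6.76 and 5.14 to 5.27. Il12rb2, the signaling chain of the IL-12 receptor, read 9.73 to 10.20 against 9.34 to 9.71, and its difference of 0.58 (adjusted p = 0.0136) ended just under the fold limit. Stat5a (-0.39), Csf2ra (-0.38) and Ifngr1 (-0.38) passed the test in the other direction and were also under that limit.

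In the chemokine list 4 of 20 genes were higher. Beside Ccl3 and Ccl4 these were Cxcr2, the neutrophil chemokine receptor (9.94, 9.84, 9.64 and 10.37 against 8.88, 8.95, 7.89 and 8.50, a rise of 1.39 ± 0.21), and Ccl9 (0.72 ± 0.17). Cxcr2 lost its call without both arrays numbered 20 (1.23, adjusted p = 0.0522). Ccl9, like Ccl4, was called in 3 of 12 refits, and without gp130 array 18 alone its difference was 0.52. Of 27 glycolysis and hypoxia genes Slc2a1, the glucose transporter GLUT1, rose by 0.91 ± 0.09 (1.88-fold, adjusted p = 0.000272) and Hk2, a hexokinase, by 0.85 ± 0.16, the latter without a call when both arrays numbered 16 (adjusted p = 0.0738) or 20 (0.0943) were absent. Slc2a3 had a difference of 0.67 and an adjusted p of 0.0524. The interferon list gave 1 call of 21 (Usp18, 0.74, called in 4 of 12 refits) and the list of antigen presentation genes 1 of 15 (Cd74, 0.75, also in 4 of 12). Bcl2, the survival gene, was the single call of 15 in its family, lower by 0.66 on the log2 scale (SE 0.08, adjusted p = 0.000913), with 10.24 to 10.65 against 11.001 to 11.14. On centred arrays Bcl2 differed by -0.58, just under the fold limit.

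Cell cycle genes and reference genes showed 0 calls of 27 and 0 of 12, with medians of 0.00 and 0.05 and differences between -0.26 and 0.28 for the former. At an unadjusted p under 0.05, 6 cell cycle genes were higher and 1 lower, and 1 reference gene was higher, while over all probe sets tested the share was 9.14% higher and 9.17% lower.

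The cell type was checked against markers, with the same 0.696% called higher and 0.632% lower over all probe sets beside their counts. Of 19 pro-B cell markers 12 were dim, among them the B lineage factors Pax5 (6.38 to 6.68) and Ebf1 (5.51 to 5.81), while Cd79a, Cd79b and Ptprc were bright and 0 of 19 was called (2 lower at an unadjusted p under 0.05). The mean log2 level over this list was 6.90 to 6.998 in gp130 and 6.89 to 7.01 in SyCyR(IL-23R). Gata2, a factor of mast cells and progenitors, was bright in both lines at 12.77 to 13.07. The T cell list and the erythroid and megakaryocyte list also gave 0 calls, of 14 and of 11, with 1 lower in the first and 2 higher and 2 lower in the second at that unadjusted p.

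Some granulocyte and macrophage markers differed between the lines. Of 23 measured 4 were higher (Lcn2, Itgam, Clec5a and Lyz2) and 1 lower (Mpo), beside 0.696% and 0.632% over all probe sets. The median was 0.14, and 14 were dim over all arrays. The mean log2 level over the list was 7.08 to 7.33 in gp130 and 7.58 to 7.79 in SyCyR(IL-23R), and these ranges did not overlap. That mean includes the called members, so it is no separate sign of a shift of the whole list. Of single probe sets 12.1% showed no overlap. Itgam, the CD11b integrin chain of myeloid cells, read 7.91, 8.65, 7.23 and 8.18 against 5.89, 6.22, 5.86 and 5.97, a difference of 2.01 ± 0.23 (at least 1.93-fold, adjusted p = 0.000496). Lyz2, lysozyme, read 7.12 to 7.48 against 5.49 to 5.92. Several defining markers of mature cells had no call and were dim in both lines, such as Adgre1 (5.4 to 5.7) and Csf1r (6.4 to 6.7), and S100a8 lay at 5.4 to 5.8. Spi1 and Prtn3 were bright in both lines and not called, and Ctsg, higher by 1.41, missed the test (adjusted p = 0.112). Of the mast cell and basophil markers Fcer1a was called among 15, yet its lowest SyCyR(IL-23R) value (8.74 on array 18) and its highest gp130 value (8.72, also array 18) almost met, and it was called in 5 of 12 refits, with an adjusted p of up to 0.164. Fewer cells of a type and less RNA per cell cannot be told apart in such samples, and the part of other cell types in the calls was not tested.

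Array numbers left a trace within each line. Over the probe sets called higher, array 18 was the lowest of its line in 60.7% for gp130 and 58.3% for SyCyR(IL-23R), against 31.5% and 25.4% over all probe sets tested. SyCyR(IL-23R) array 16 was the highest of its line in 44.8%, against 23.1% over all. The deviations of the even arrays from their group mean also followed the odd array 1 number below. In SyCyR(IL-23R) each of the 4 correlated best with that neighbour (r = 0.16, 0.39, 0.49 and 0.35 across probe sets for arrays 14, 16, 18 and 20), and the same held for the 4 gp130 arrays (0.45, 0.41, 0.61 and 0.28). Probe sets are not independent replicates, so these values are descriptions. They mean that the odd arrays cannot be taken as separate from the even ones, and no source used here states whether neighbours come from 1 culture.

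**Figure D3:**
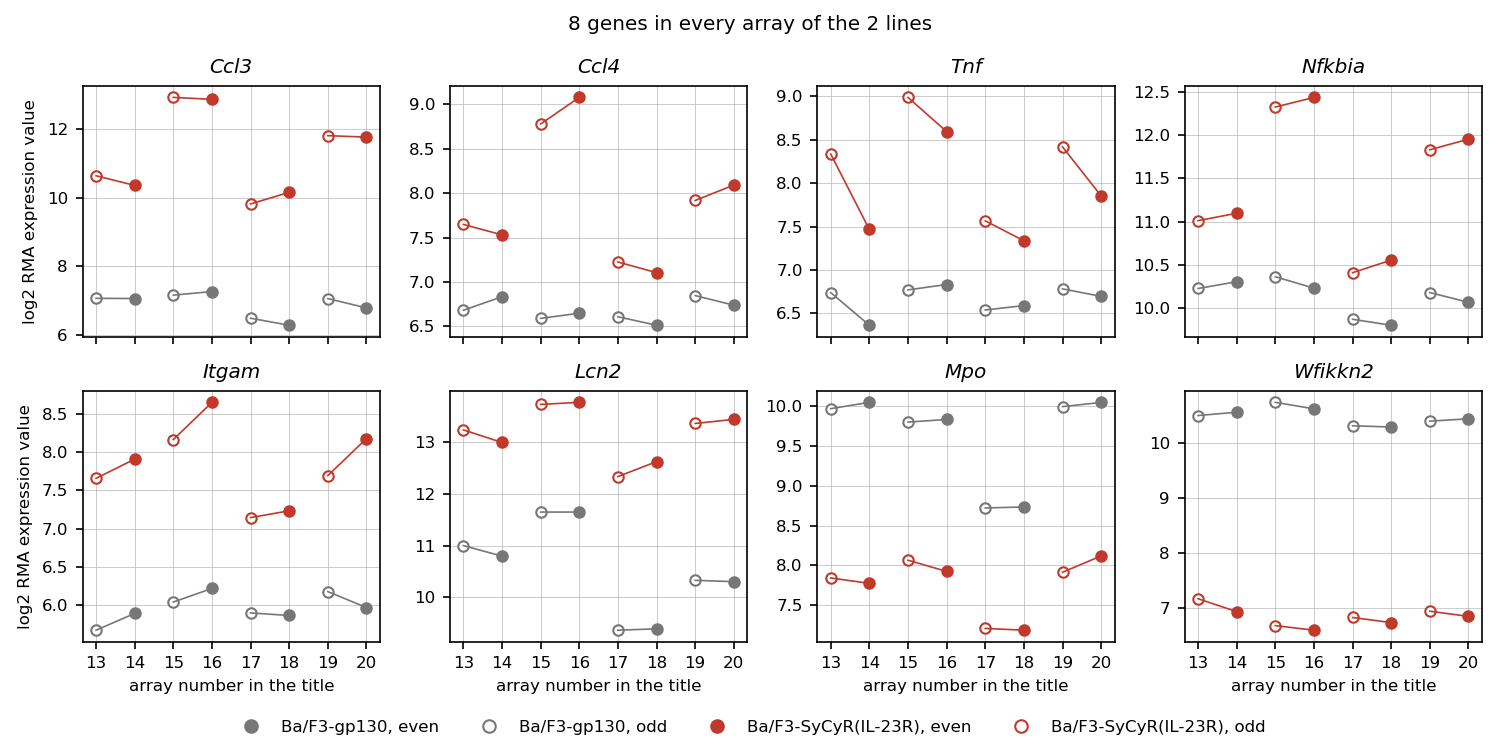
Log2 RMA level (vertical axis, own scale per panel) of 8 genes on every array of Ba/F3-gp130 (grey) and Ba/F3-SyCyR(IL-23R) (red) by array number (horizontal axis), with even arrays filled, odd arrays open and a line joining each even array to the number before it. Ccl3, Ccl4, Nfkbia and Lcn2 are highest on SyCyR(IL-23R) arrays 15 and 16 and lowest on 17 and 18, and Mpo and Lcn2 dip on gp130 arrays 17 and 18.

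With that limit, the lines were also compared on the odd-numbered arrays, which the choice of numbers had left out. This is an unlike contrast, since Socs3 read 11.75 to 12.06 on the odd SyCyR(IL-23R) arrays and 8.44 to 8.60 on the odd gp130 arrays. The difference between lines and the Socs3-high state of SyCyR(IL-23R) cannot be told apart there. There 219 probe sets were higher and 160 lower (0.935% and 0.683%, and 1.62% in either direction). All 163 even-array rises and all 148 falls kept their sign on the odd arrays, and 133 and 107 of them were called there too. Ccl3 was higher by 4.35, Rgs1 by 4.06, Aldh1a1 by 2.71 and Tfec by 3.37, and Wfikkn2 fell by 3.57 on the log2 scale. Ccl3 read 9.82 to 12.92 on the odd SyCyR(IL-23R) arrays and 6.49 to 7.16 on the odd gp130 arrays, close to the even values. Nfkbia (1.24, adjusted p = 0.0546), Traf1 (0.60, 0.0623) and Dusp4 (0.65, 0.0945) did not pass on the odd arrays. The even and odd differences were not tested against each other.

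Direct tests against the other lines, in a fit of the 16 even arrays of 4 lines, showed where SyCyR(IL-23R) stood apart. Against SyCyR(IL-23/2A) 143 probe sets were higher and 81 lower (0.611% and 0.346%, 0.957% in either direction), and against IL-12Rβ1-IL-23R 360 were higher and 349 lower (1.54% and 1.49%, 3.03% in either direction). The first count fell to 67 higher without the arrays numbered 20 and to 93 without those numbered 14. Ccl3 was higher than in either line, by 3.99 in both tests (adjusted p = 6.27e-05 and 1.09e-05), and so were Tfec (3.07 and 0.80), Lcn2 (1.77 and 6.72), Itgam (1.89 and 2.12) and Pim2 (1.11 and 2.17). Since Tfec was also 3.07 above gp130, the gap of 0.80 means that much of its rise was shared with IL-12Rβ1-IL-23R. Wfikkn2 was lower than in either line (differences of -4.05 and -3.71), and so was Tdrd9 (-2.96 and -3.06).

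Other genes had a like level in a second line, or one further from that of gp130. Rgs1 had a mean of 10.39 in IL-12Rβ1-IL-23R, from which SyCyR(IL-23R) did not differ beyond the error (-0.37, adjusted p = 0.268), and of 6.01 in SyCyR(IL-23/2A), where the difference had an adjusted p of 1.18e-09. Aldh1a1 and Ctsj were higher still in IL-12Rβ1-IL-23R, with means of 13.10 and 11.72 and differences of -1.94 and -2.68. 3830403N18Rik was high in all 3 receptor lines (9.84 in SyCyR(IL-23/2A) and 10.36 in IL-12Rβ1-IL-23R), and Dnah14 was dim in all 3. Gpr34, Gzmb, Mpo and Car5b did not differ from IL-12Rβ1-IL-23R beyond the error (adjusted p = 0.711, 0.138, 0.370 and 0.824), whereas each was lower than in SyCyR(IL-23/2A). Lgals3 lay between, higher than in IL-12Rβ1-IL-23R by 1.44 and lower than in SyCyR(IL-23/2A) by 1.70 (difference -1.70). These comparisons share the SyCyR(IL-23R) arrays with the main one, so their values stand side by side and are no separate support.

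**Figure D4:**
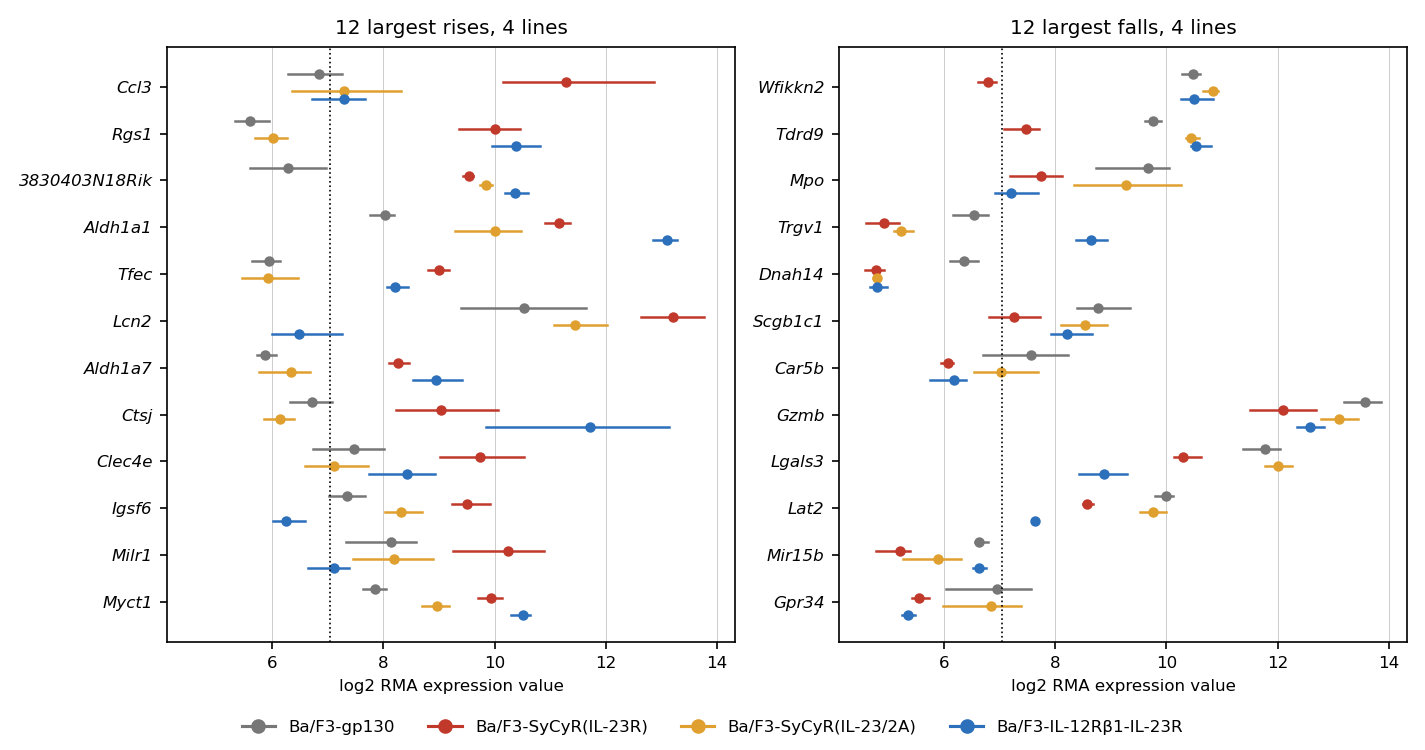
Log2 RMA level (horizontal axis) of the 12 largest rises and 12 largest falls on the even-numbered arrays of all 4 lines, with the point at the mean and the bar from the lowest to the highest of 4 arrays. Ccl3 is high in SyCyR(IL-23R) alone among these lines, Rgs1 also in IL-12Rβ1-IL-23R, 3830403N18Rik in all 3 receptor lines, and Wfikkn2 is low in SyCyR(IL-23R) alone.

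The array also carries probe sets for miRNA genes, which read the hairpin or its host transcript and not the mature form. Of 300 such genes 6 were called lower and 0 higher, beside 0.632% lower and 0.696% higher over all probe sets tested, and 233 of the 300 were dim. Probe sets without a gene symbol also leaned lower, with 744 of 12146 lower and 34 higher when tested with the rest. Of the 6, Mir15b kept its call in all 12 refits, Mir142 in 11, Mir186 in 10, Mir7-1 in 6, Mir103-2 in 5 and Mirlet7f-1 in 2. Mir142, a miRNA of blood cells, read 8.59, 8.62, 8.60 and 8.60 in gp130 and 7.16, 8.09, 7.73 and 8.03 in SyCyR(IL-23R), a difference of -0.85 ± 0.16 (1.80-fold lower, adjusted p = 0.0112). The call was lost without both arrays numbered 20 (adjusted p = 0.0549). Mir15b was dim in both lines, while Smc4, the bright gene whose locus holds it, read 11.90 to 12.001 and 11.67 to 11.89 and was not called. Mir142 was named after its values were seen. The mature RefSeq sequences (GRCm38.p6) are shown because these were the 2 miRNA genes described here, Mir142 bright in both lines and Mir15b dim in both, and their seeds (bases 2 to 8) are in capitals.
mmu-miR-142a-5p: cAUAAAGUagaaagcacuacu
mmu-miR-142a-3p: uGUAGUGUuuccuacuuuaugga
mmu-miR-15b-5p: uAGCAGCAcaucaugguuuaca
mmu-miR-16-5p: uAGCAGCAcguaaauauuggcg
The Mir142 products come from chr11:87756867-87756887 and chr11:87756903-87756925, and their seeds differ from each other. miR-15b-5p shares its seed with miR-16-5p of the neighbouring Mir16-2, which was dim in both lines and not called (difference -0.33, adjusted p = 0.107).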

How the data were processed

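Total RNA was hybridised to Affymetrix Mouse Gene ST 1.0 arrays. The authors used RMA in Affymetrix Expression Console, with its sketch-quantile setting. The deposited values are log2 expression values, 1 per probe set. The software version and the genome build are not given in the sources used here. Nothing was renormalized, and quantile normalization forces the arrays to a like distribution, which can hide a shift common to most probe sets.

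Groups came from the line in the labels and the number in the titles. The members and gene lists were chosen with earlier results of these data known. The platform annotation gave 1 symbol to 21789 of 35556 probe sets, several to 1621 and none to 12146, and 21698 of the first matched the RefSeq gene table. A gene is represented by its probe set with the highest mean over all 32 arrays. The study's methods call the replicates independent biological ones. They give no account of the parental arrays, so p-values with that line measure the spread between these samples, which may be technical.

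The lines were fitted by lmFit and eBayes of limma 3.58.1 (R 4.3.3) without covariates, with Benjamini-Hochberg adjustment over 23410 probe sets and a limit of 1.5-fold. The fit was tested on data made with known changes for the SyCyR(IL-23R) and gp130 comparison over 23410 probe sets: 56% of 50 changes of 1.5-fold and 98% of 50 changes of 2-fold were called, with 0 false calls. The changes of 1.5-fold lay on the fold limit itself. Noise was drawn separately for each probe set, without deviations shared across an array, so the false calls of the real arrays are not measured by it. The genes named are the 3 receptor genes, Socs3, the 12 largest rises and 12 largest falls called without overlap, list members as examples and the genes named by the study. Ltb, Mir142, Mir16-2, Smc4 and the genes of the closing section outside these sets were named after their values were seen, as were the motifs, the check of neighbouring array numbers and the check of extreme arrays.

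Same-numbered even arrays of SyCyR(IL-23R) and IL-12Rβ1-IL-23R deviated together in every pair (lowest r = 0.30). No label states such a pairing. The values against that line come from a fit without pairing, and the array number entered as a block in an alternative fit only. With gp130 and SyCyR(IL-23/2A) not every pair was above 0.1 (lowest 0.07 and 0.09), and no pairing was assumed. Each SyCyR(IL-23/2A) array did correlate best with the SyCyR(IL-23R) array of its own number (r = 0.11, 0.28, 0.35 and 0.09). The same held for gp130 arrays 16, 18 and 20 (r = 0.36, 0.55 and 0.07). Alternatives were all 4 lines in the fit, the number as a block, a filter on dim probe sets, all probe sets together, centred arrays, an intensity trend, other limits and leaving out arrays. The number of arrays limits the precision. Tables and figures were made in Python 3.11.15 with pandas 2.3.3, numpy 2.4.6 and matplotlib 3.10.9.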

Additional observations from a re-analysis of the deposited data

Results flagged for a closer look

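Among the genes named by the rule, 102 groups of 4 even-numbered arrays were screened with Dixon's test, and 4 held an array far from the others. Chance alone flags about 1 in 20 such groups. Mpo on gp130 array 18 was 8.73, against 9.83 to 10.05 on the other gp130 arrays. Il12rb1 on SyCyR(IL-23R) array 18 was 8.04, against 8.24 to 8.27. Mir15b was 6.80 on gp130 array 16, against 6.57 to 6.58, and 4.77 on SyCyR(IL-23R) array 14, against 5.33 to 5.39, with all of these values dim.

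Probe sets without a gene symbol entered none of the main fits of the report, only the alternative with all probe sets together. When they were tested together with the others on the even arrays, 744 of 12146 (6.13%) were lower in SyCyR(IL-23R) and 34 (0.28%) higher. Of the 744, 318 were dim in both lines. The median of these probe sets per array was 6.56 to 6.62 in gp130 and 6.30 to 6.40 in SyCyR(IL-23R), and the median difference was -0.075. The odd arrays gave 645 lower and 44 higher. Against SyCyR(IL-23/2A) 73 were lower and 14 higher, and against IL-12Rβ1-IL-23R 430 were lower and 32 higher.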

How the results depend on the processing

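No alternative reversed the direction of any of the 112 named genes. With a 2-fold limit the even-array counts were 77 higher and 30 lower, the odd-array counts 103 and 32, those against SyCyR(IL-23/2A) 63 and 23 and those against IL-12Rβ1-IL-23R 126 and 140. Centring the arrays on their medians gave 98 lower (237 higher) on the even arrays, and the share of higher among calls went from 52.4% to 70.7%. Leaving out 1 array or 1 number gave 94 to 206 higher and 93 to 167 lower on the even arrays, 149 to 263 and 113 to 213 on the odd arrays, 67 to 188 and 63 to 79 against SyCyR(IL-23/2A), and 322 to 416 and 322 to 422 against IL-12Rβ1-IL-23R. With the array number as a replicate block the even comparison gave 199 higher and 158 lower. Its numbers were not taken to pair the arrays, since same-numbered deviations correlated at 0.08, 0.36, 0.55 and 0.07. Array 14 of gp130 correlated best with SyCyR(IL-23R) array 20 (0.11), by little over its own number. The gp130 arrays 16, 18 and 20 did correlate best with their own number, so a pairing is not excluded. The calls and refits of the report come from the fit without this block. With the block the counts against IL-12Rβ1-IL-23R, where same-numbered arrays deviated together, were 374 and 355, and no gene named with a value in that comparison changed its call. Against SyCyR(IL-23/2A) the block gave 173 and 87. All other settings kept each count within 1.5 times. Of the single-gene values, 166 of those that left out arrays and 15 of the others, over 41 genes, lost a call, and 2 of 1 gene gained one. Cause was not tested in any of these. Of the changes of 1.5-fold planted in simulated data 56% were called. These lay on the fold limit itself, so that share reflects the limit and is no measure of the number of arrays alone. Absence of a call near that size is no sign of equal levels, and dim probe sets carry only a bound.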

Other observations

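The following groups were put together by gene symbol after the values had been seen, and they are described without a test. Of 33 C-type lectin genes of the Clec series 4 were higher in SyCyR(IL-23R) on the even arrays and 0 lower, beside 0.696% and 0.632% over all probe sets. Clec4e and its neighbour Clec4d (1.52, 6.17 to 6.70 in gp130 and 7.62 to 8.71 in SyCyR(IL-23R)) lie on chromosome 6, and Clec5a (1.97) and Clec4n (0.60) were dim in gp130. Clec4n was called in 3 of 12 refits that left out arrays, with an adjusted p of up to 0.139. Of 7 Fc receptor genes 3 were higher, namely Fcgr1, the high-affinity receptor for IgG (8.94, 9.52, 8.33 and 9.03 against 6.75 to 7.05, a difference of 2.02 ± 0.19), Fcgr2b (0.80) and Fcer1a. Fcgr2b lost its call without both arrays numbered 20 (0.74, adjusted p = 0.0783), and Fcer1a kept its call in 5 of 12 refits. Of 6 stefin genes 3 were called higher and 0 lower. Stfa2, Stfa3 and Csta3 on chromosome 16, which encode cathepsin inhibitors, were higher by 1.63, 1.46 and 1.91, with gp130 values of 4.07 to 5.43, and their group medians were dim in both lines. Their values on SyCyR(IL-23R) array 16 were 7.11, 6.07 and 8.35. Stfa2 was called in 7 of 12 refits (adjusted p up to 0.139), and Csta3 was not called without both arrays numbered 20 (0.0735). Of 9 caspase genes the inflammatory caspases Casp1 (0.83, 1.78-fold) and Casp4 (1.42, 2.67-fold) were the 2 called.

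The next 4 genes encode secreted proteins and were picked singly after their values were seen, with no list counted behind them. Hp, haptoglobin, read 10.17, 10.30, 9.92 and 10.01 in SyCyR(IL-23R) and 8.21 to 8.42 in gp130 (1.82 ± 0.09, 3.53-fold, adjusted p = 4.53e-07). Lbp, the lipopolysaccharide-binding protein, rose by 1.92 ± 0.18 (3.78-fold), and Lrg1 by 0.71. Ebi3, the chain that IL-27 and IL-35 share, read 9.71, 10.21, 8.74 and 9.36 against 7.44 to 8.00 (1.77 ± 0.25, 3.42-fold, adjusted p = 0.00212). Each of these 4 kept its call in all 12 refits that left out arrays, and each was also called higher in direct tests against IL-12Rβ1-IL-23R (differences of 1.62, 1.65, 1.01 and 2.86 for Hp, Lbp, Lrg1 and Ebi3) and against SyCyR(IL-23/2A) (0.99, 0.93, 0.59 and 1.80). The refits and direct tests share the SyCyR(IL-23R) arrays on which these genes were picked, so they are no separate support.

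By the gene type of the RefSeq table, and beside 0.696% higher and 0.632% lower over all probe sets, the calls were as follows, with no test between types. Protein-coding genes gave 143 higher and 85 lower of 18556, long non-coding RNAs 1 and 10 of 675, miRNA genes 0 and 7 of 297 (chosen by type, where the 300 of the report were chosen by symbol) and small nucleolar RNAs 0 and 3 of 53. The median differences of these types were 0.01, -0.03, -0.03 and -0.06. Probe sets without a gene symbol leaned the same way as the non-coding types (744 of 12146 lower, 34 higher, median difference -0.075). Malat1, a nuclear long non-coding RNA, read 12.02 to 12.38 in gp130 and 11.05 to 11.78 in SyCyR(IL-23R) (-0.84, adjusted p = 0.00644). Its call was lost without both arrays numbered 14 (-0.71, adjusted p = 0.0725) or 20 (-0.90, adjusted p = 0.0522).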
